A study of Homo sapiens with 6 samples.

Results

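The 9 genes described here are known targets of the transcription factor NRF2. They comprise 5 antioxidant genes (NQO1, HMOX1, TXNRD1, SRXN1 and OSGIN1), 2 NADPH-forming enzyme genes (PGD and ME1) and 2 ferritin genes (FTL and FTH1). They were listed by name for this function, and no measured value entered the rule. Earlier results of these data were, however, known when the genes were chosen. All 9 were present among the 20683 gene symbols counted. RNA was counted in HT-1080, a human fibrosarcoma cell line in long use, in 2 groups of 3 libraries that the series calls biological replicates. One group had been exposed for 24 h to the IRAK4 inhibitor SLV-8472-01, labelled as 5 mM (the unit cannot be verified from the files). The other group had received 0.1% DMSO for 24 h. IRAK4 is a kinase of the signalling complex below Toll-like and interleukin-1 receptors. The labels do not say whether the inhibitor dishes also contained DMSO.

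NRF2, encoded by NFE2L2, is held at a low level in unstressed cells by KEAP1, which presents it to a CUL3 ubiquitin ligase for destruction. Oxidants and electrophiles disable KEAP1, and NRF2 then pairs with a small MAF protein and binds antioxidant response elements in the DNA of its target genes. BACH1 binds the same elements as a repressor, above all at HMOX1 and the ferritin genes, and leaves them when heme is plentiful. The products of the target genes reduce quinones and peroxides, regenerate thioredoxin, break down heme, store the iron set free and supply the NADPH that the reductases consume.

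The core of the antioxidant response element, TGACNNNGC, was searched on both strands in the 250 bases before each start in the RefSeq promoter table of build GRCh38.p14. The table held 8 such windows for 7 of the 9 genes, matched by symbol, but none for HMOX1 and FTH1. The motif was found 4 times, in 3 genes (TXNRD1, PGD and ME1), and in 10.9% of all 35116 windows of this length. The 4 matches are shown because NRF2 binds this element in its target genes. The match in 1 of the 3 windows of the related gene SLC3A2 is given for comparison with ME1. Of the other related genes that were searched, GCLM and KEAP1 also had a match, while MTHFD2, SOD2, BACH1 and NFE2L2 had none. SLC7A11 had no window, and the remaining related genes described further on were not searched. Each stretch runs 5′ to 3′ in the direction of the motif, which stands in capitals.
TXNRD1, first start, chr12:104215670-104215698, plus strand: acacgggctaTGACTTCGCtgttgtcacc
TXNRD1, second start, chr12:104286920-104286948, minus strand: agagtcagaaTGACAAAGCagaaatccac
PGD, chr1:10398853-10398881, minus strand: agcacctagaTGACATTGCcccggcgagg
ME1, chr6:83431170-83431198, minus strand: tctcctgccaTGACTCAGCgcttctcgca
SLC3A2, chr11:62881652-62881680, plus strand: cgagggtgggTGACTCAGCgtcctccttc

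The motifs of ME1 and SLC3A2 have the same 9 bases. Both contain TGACTCA, the binding motif of AP-1 factors, which was present in 4.2% of the windows. A match of these letters describes the reference sequence and is not a measured binding site. Bases outside these windows were not searched, so a gene without a match here may hold the element elsewhere.

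Library totals ranged from 9162281 to 13184553 counts. DMSO 3 stood apart: its median absolute log2 difference from the other DMSO libraries was 0.317 and 0.248, against 0.155 between DMSO 1 and DMSO 2 and 0.122 to 0.130 among the inhibitor libraries. Every pair of replicates differed by more than sampling noise. The cell type was checked with marker lists, in which all 8 mesenchymal genes had a mean of at least 10 counts. Their summed level was 10583 to 11038 CPM in the inhibitor libraries and 10205 to 11923 CPM in the DMSO libraries. Summed markers of epithelial, blood and endothelial cells stayed at or below 4.05 CPM in every library. Of these markers, 2 of 7 epithelial, 4 of 6 blood and 1 of 4 endothelial genes were at 0 throughout. The lists included PTPRC, CD3E, HBB, KRT5, CDH1 and VWF. A mean of at least 10 counts was reached by 1 epithelial and 2 endothelial genes, and by no blood gene. Nothing in the labels says whether the replicates came from separate cultures beyond the series' own wording, so the p-values measure the spread between these libraries.

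None of the 9 genes passed the test between inhibitor and DMSO. Of them 8 had enough counts to be tested, and TXNRD1 had not. The quasi-likelihood test of edgeR, at a threshold of 0.05 on p adjusted by Benjamini-Hochberg, called 0 of the 8, and 1 (FTL) had an unadjusted p under 0.05. Among all 11216 genes tested, edgeR called 3.87%, with 1.95% higher and 1.92% lower in the inhibitor libraries. An unadjusted p under 0.05 was reached by 19.5% of all tested genes. DESeq2 and limma-voom also called 0 of the 8, against 5.3% and 3.96% of all tested genes. When libraries were scaled by their totals alone, 67.3% of edgeR's calls were higher, in place of 50.5%. The median log2 fold change of the 8 genes was 0.073, beside -0.0044 for all tested genes, with 5 positive and 3 negative values, where 49.4% of all tested genes were positive. Without DMSO 3 the fit called 2 of the 8, ME1 higher and FTL lower, while it called 21.9% of all genes, and limma-voom with quality weights also called ME1 higher and FTL lower, with 23.2% of all genes called.

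**Figure D1:**
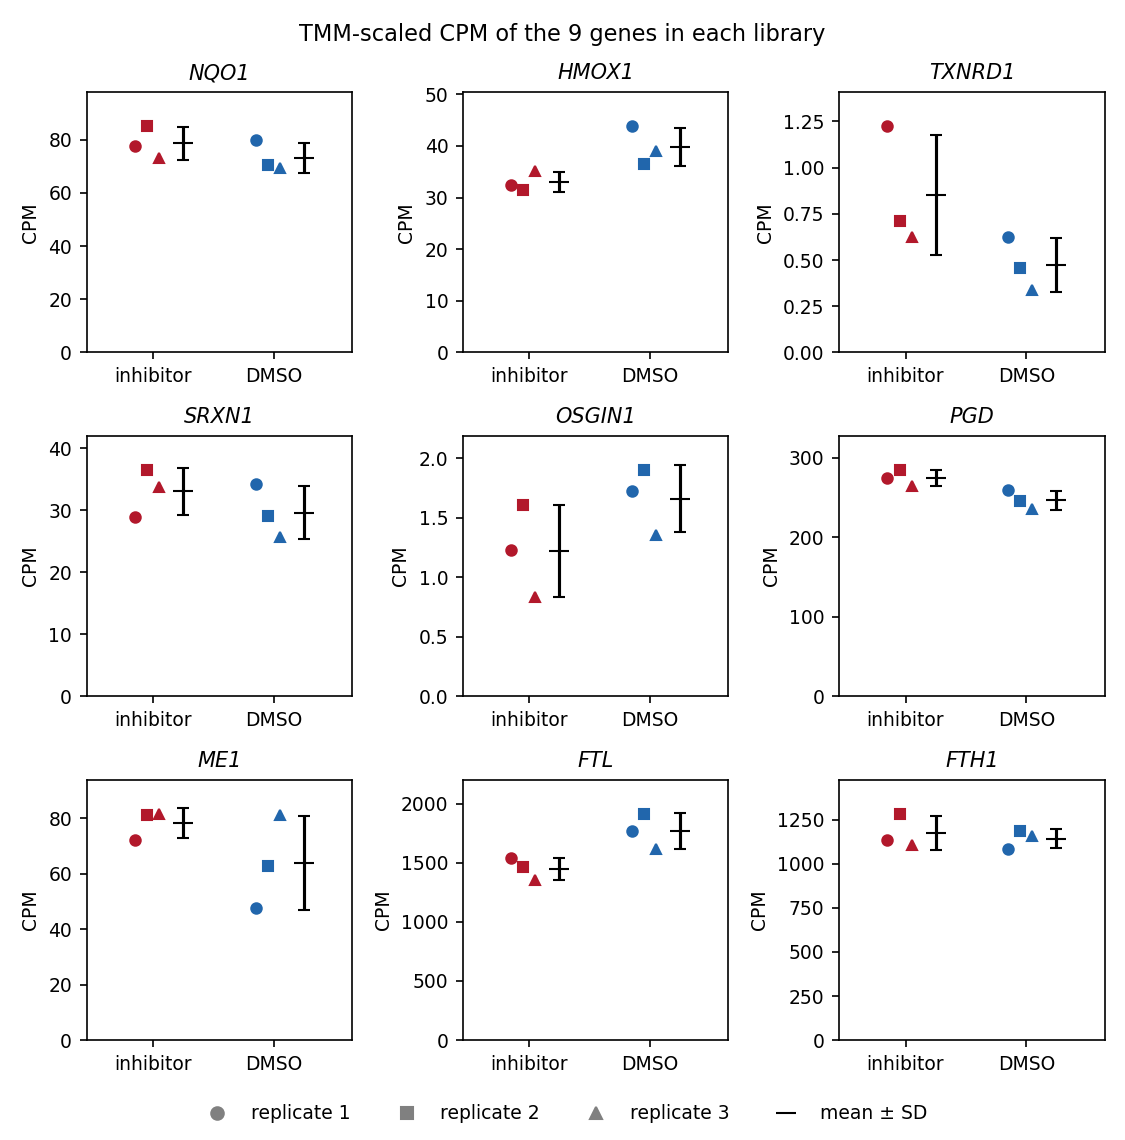
Library-scaled CPM (vertical axes starting at 0, each gene on its own scale) of the 9 genes in each of the 3 inhibitor libraries (red) and 3 DMSO libraries (blue), with the group mean and SD beside them. The groups do not overlap for HMOX1, PGD and FTL, and the ME1 value of DMSO 3, 81.1 CPM, lies among the inhibitor values.

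Values are CPM, counts scaled to the same library size. The panel reads each gene by 1 amplified stretch, so a CPM can be compared between libraries but not with that of another gene. NQO1 encodes the quinone reductase that takes quinones to hydroquinones with NADPH or NADH. It had 77.5, 85.1 and 73.1 CPM in the inhibitor libraries and 79.8, 70.3 and 69.2 CPM in the DMSO libraries. The groups overlapped, since DMSO 1 lay above 2 of the inhibitor libraries. The log2 fold change was 0.10 (SE 0.124, 95% interval -0.16 to 0.37, edgeR adjusted p = 0.702). On the linear scale this interval runs from 0.893-fold to 1.29-fold.

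HMOX1 encodes heme oxygenase-1, which opens heme to biliverdin, carbon monoxide and iron. It had 32.4, 31.5 and 35.2 CPM in the inhibitor libraries and 43.9, 36.5 and 39.1 CPM in the DMSO libraries. Every inhibitor value was below every DMSO value, with a gap between inhibitor 3 and DMSO 2 that was smaller than the SD of the DMSO group, 3.73 CPM. The means were 33.0 ± 1.91 CPM with inhibitor and 39.8 ± 3.73 CPM with DMSO (SD, n = 3 each). The log2 fold change of -0.27 did not pass (SE 0.130, 95% interval -0.55 to 0.0081, edgeR adjusted p = 0.271). HMOX1 was negative under all 15 alternative settings, between -0.33 and -0.20, with adjusted p between 0.0731 and 0.585.

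SRXN1 encodes sulfiredoxin, which repairs over-oxidized peroxiredoxins. It had 28.9, 36.5 and 33.7 CPM with inhibitor and 34.2, 29.1 and 25.7 CPM with DMSO. The lowest inhibitor library was below 2 of the DMSO libraries, and the log2 fold change was 0.15 (SE 0.148, 95% interval -0.16 to 0.47, edgeR adjusted p = 0.626). Without DMSO 3 it was 0.047.

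OSGIN1, an oxidative stress-induced growth inhibitor gene, had only 15, 18 and 8 counts in the inhibitor libraries and 22, 25 and 12 in the DMSO libraries. The groups overlapped at 0.832 to 1.60 CPM and 1.35 to 1.90 CPM. Its log2 fold change of -0.44 had the widest 95% interval of the 8, from -1.15 to 0.27 (SE 0.331, edgeR adjusted p = 0.501), which contains a halving as well as no difference.

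TXNRD1 encodes cytosolic thioredoxin reductase, the selenoenzyme that keeps thioredoxin reduced. It was the member that missed the filter on low counts, with 15, 8 and 6 counts in the inhibitor libraries and 8, 6 and 3 in the DMSO libraries. Summed, there were 29 counts with inhibitor and 17 with DMSO, a scaled ratio of 1.80 whose exact 95% interval, from counting alone, was 0.954 to 3.48. Such intervals cover counting error only and leave out the spread between libraries. They treat reads as independent, which amplified reads need not be, so they may be too narrow. The interval includes 1, and no difference in TXNRD1 was detected at these counts. The reason for its low counts was not tested. In a fit with no filter its log2 fold change was 0.81 with an edgeR adjusted p of 0.487.

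Both NADPH-forming members had positive log2 fold changes that did not pass. PGD encodes 6-phosphogluconate dehydrogenase, the second NADPH-forming step of the pentose phosphate pathway. It had 275, 285 and 264 CPM in the inhibitor libraries and 259, 245 and 235 CPM in the DMSO libraries. All inhibitor values were above all DMSO values, but by little: the coefficient of variation was 3.76% and 4.86%, and the log2 fold change was 0.16 (SE 0.111, 95% interval -0.082 to 0.39, edgeR adjusted p = 0.475). Without DMSO 3 it was 0.11.

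ME1 encodes the cytosolic malic enzyme, which forms NADPH while turning malate into pyruvate. It had 72.0, 81.2 and 81.6 CPM in the inhibitor libraries and 47.5, 62.9 and 81.1 CPM in the DMSO libraries. The inhibitor values were close together and the DMSO values were spread, with coefficients of variation of 6.92% and 26.3%. With all 6 libraries the log2 fold change was 0.30 (SE 0.168, 95% interval -0.061 to 0.66, edgeR adjusted p = 0.347). Leaving out DMSO 3, the high DMSO value, gave 0.49 with an adjusted p of 0.00293, and leaving out DMSO 1, the low one, gave 0.12. Quality weights for the libraries in limma-voom gave 0.36 (adjusted p = 0.0173). Over all alternatives the adjusted p ran between 0.00293 and 0.719. The annotated ME1 transcript had the lowest GC content of the 9 genes, 39.5%, against 44.8% to 63.5% for the others. With each library's GC trend removed the value was 0.27 (edgeR adjusted p = 0.254). This GC content is that of the longest annotated transcript and not of the amplified stretch, whose GC content was not tested.

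The 2 ferritin genes had unlike values. FTL, the light chain gene, was lower with inhibitor at an unadjusted p only, and FTH1, the heavy chain gene whose product oxidizes the iron to be stored, differed little in mean. FTL had 1536, 1463 and 1350.2 CPM in the inhibitor libraries and 1769, 1915 and 1617 CPM in the DMSO libraries. Every inhibitor value lay below every DMSO value. The means were 1449.6 ± 93.4 CPM with inhibitor and 1767 ± 149 CPM with DMSO (SD, n = 3 each). The log2 fold change was -0.29 (SE 0.110, 95% interval -0.52 to -0.049), with an unadjusted p of 0.0213 and an edgeR adjusted p of 0.166. FTL passed without DMSO 3 at -0.36 (adjusted p = 0.00483) and with library quality weights at -0.36 (0.00321). Over its 15 alternatives it lay between -0.36 and -0.22, with adjusted p between 0.00321 and 0.437.

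FTH1 had 1137, 1286 and 1105 CPM in the inhibitor libraries and 1082, 1188 and 1157 CPM in the DMSO libraries. The groups overlapped, and the log2 fold change was 0.041 (SE 0.109, 95% interval -0.19 to 0.27, edgeR adjusted p = 0.878). On the linear scale this interval runs from 0.875-fold to 1.21-fold. Its sign changed without inhibitor 2 (-0.028) and without DMSO 1 (-0.0041).

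Set against each other within a library, which removes the library scaling, there were 74.0, 87.9 and 81.8 FTH1 counts per 100 FTL counts in the inhibitor libraries. The DMSO libraries had 61.2, 62.0 and 71.6. The groups did not overlap, though DMSO 3 came close to inhibitor 1. The means were 81.2 ± 6.96 with inhibitor and 64.9 ± 5.79 with DMSO (SD, n = 3 each). On the log2 scale the difference was 0.32, and 0.26 to 0.40 with any 1 library left out. No p is given, since the ratio was formed from listed genes whose values were known. The ratio compares libraries and does not give the ratio of the transcripts or of the ferritin chains, whose translation is set by cellular iron. Both ferritin genes have many processed copies in the genome, so their counts are uncertain to the extent that reads were assigned among them. Of the copies FTH1P3 had 2 to 10 counts per library and FTLP10 had 0.

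**Figure D2:**
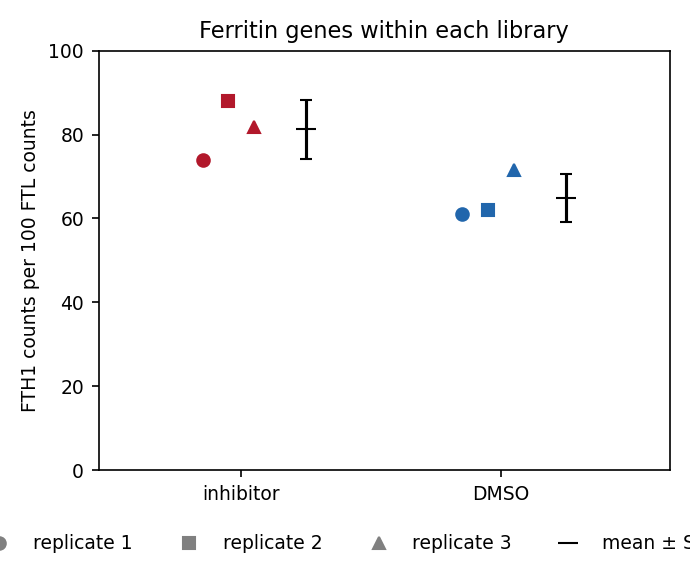
FTH1 counts per 100 FTL counts (vertical axis starting at 0) in each inhibitor library (red) and DMSO library (blue), with group means and SD. The inhibitor libraries lie between 74.0 and 87.9 and the DMSO libraries between 61.2 and 71.6.

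In 3 of the 8 tested genes the groups did not overlap. HMOX1 and FTL were lower and PGD was higher in the inhibitor libraries. Of all tested genes 25.5% did not overlap, so 3 of 8 is not set apart by this count. NQO1, SRXN1, PGD and FTH1 had intervals within 1.39-fold of no difference in either direction, whereas those of HMOX1, ME1 and FTL allowed up to 0.682-fold, 1.58-fold and 0.696-fold. Likeness of pattern was measured as the root mean square difference of mean-centred log2 CPM over the 6 libraries. Among 9245 other genes the closest to FTL was IRAK1 (0.0292) and the closest to ME1 was DCAF16 (0.0360). For HMOX1 it was LOC339803 (0.0343), for SRXN1 SAP130 (0.0416), for PGD GLT8D1 (0.0164) and for FTH1 MRRF (0.0282). None of these genes was another member. Few of the 9245 genes were members, so this does not tell whether the members varied together.

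**Figure D3:**
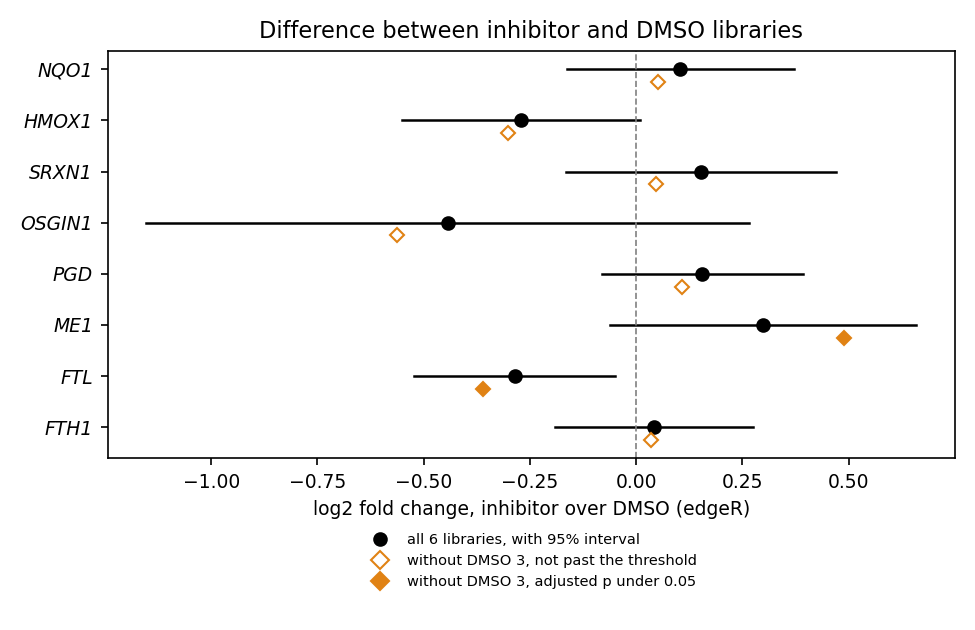
Log2 fold change of inhibitor over DMSO (horizontal axis) for the 8 tested genes from all 6 libraries, with 95% intervals (black), and from the fit without DMSO 3 (orange, filled where the adjusted p was under 0.05). The interval of FTL alone excludes 0, and ME1 at 0.49 and FTL at -0.36 pass without DMSO 3.

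Around these genes, 7 lists of related pathways held 90 genes, of which 74 were tested. Of the 74, 1 rose and 4 fell, 6.76% in all beside 3.87% of all tested genes, and their median log2 fold change was -0.051. The genes that changed were SOD2, which rose, and SLC3A2, MTHFD2, BACH1 and SLC7A11, which fell. Without DMSO 3, 8 were higher and 17 lower, in a fit that called 21.9% of all genes. The lists were written with earlier results of these data known, and these counts are descriptive.

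**Figure D4:**
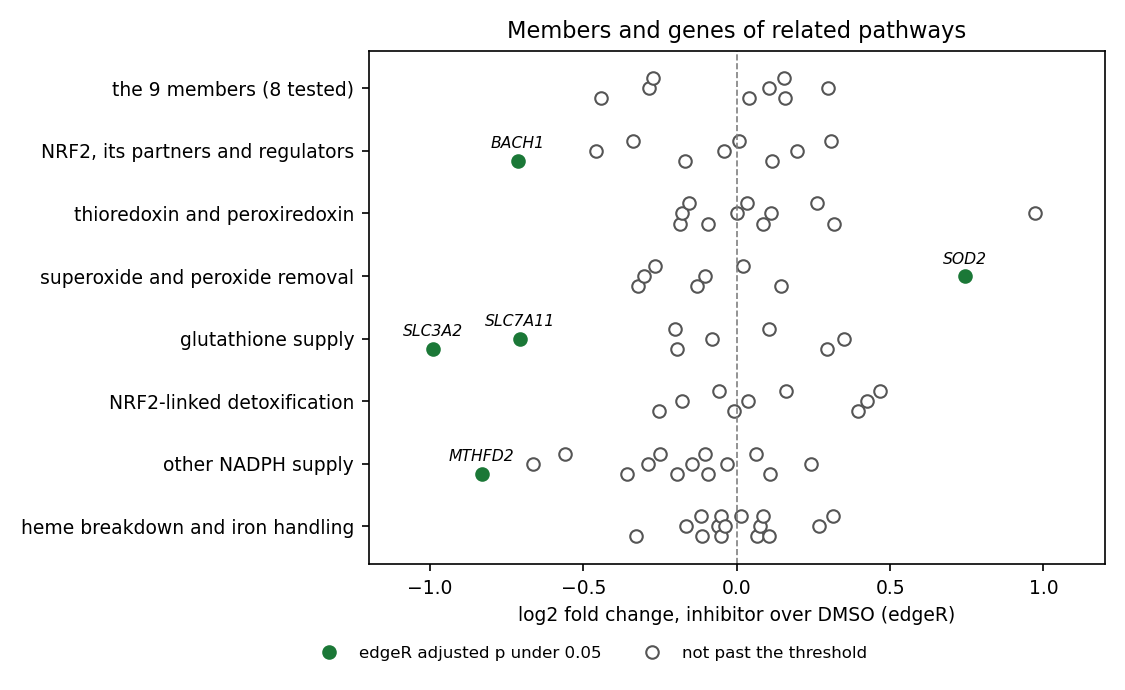
Log2 fold change of inhibitor over DMSO (horizontal axis) for the 8 tested members and for the 74 tested genes of 7 related lists (rows, points spread vertically for legibility). Filled points passed the edgeR test, and these are SOD2 to the right of 0 and SLC3A2, MTHFD2, BACH1 and SLC7A11 to the left.

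In the list of NRF2, its partners and regulators, 1 of 9 tested genes fell and none rose (median log2 fold change -0.042). The gene that fell was BACH1, the repressor of antioxidant response elements. It had 15.3, 15.7 and 14.0 CPM in the inhibitor libraries and 20.4, 27.1 and 26.6 CPM in the DMSO libraries. All inhibitor values were below all DMSO values, and the log2 fold change was -0.71 (SE 0.153, edgeR adjusted p = 0.0187). The call was lost without inhibitor 1, 2 or 3 (adjusted p = 0.102, 0.105 and 0.110) and without DMSO 2 (0.112), over a range of 4.2e-05 to 0.112, while the value stayed between -0.85 and -0.64 under all alternatives.

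NFE2L2 itself had 163, 167 and 181 CPM with inhibitor and 177, 171 and 297 CPM with DMSO. Only DMSO 3 lay apart, and the fitted log2 fold change was -0.34 (SE 0.181, edgeR adjusted p = 0.322) but -0.049 without that library. KEAP1 had 50.4, 51.3 and 40.6 CPM with inhibitor and 39.0, 40.0 and 36.0 CPM with DMSO, groups that did not overlap. Its log2 fold change of 0.31 did not pass (SE 0.134, adjusted p = 0.226). MAFF, a small MAF partner of NRF2 named after its values were seen, was too low to be tested, with 6 counts in the inhibitor and 21 in the DMSO libraries, a ratio of 0.301 (95% counting interval 0.0993 to 0.770). ABCC3, an efflux transporter gene of the detoxification list, was likewise not tested and was also named after its values were seen. It had a ratio the other way, with 27 counts in the inhibitor and 14 in the DMSO libraries (2.03, 95% counting interval 1.03 to 4.19). MAFF and ABCC3 were picked because their intervals excluded 1, and those of the other low-count genes of the lists included it. The intervals leave out the spread between replicates, so neither ratio establishes a difference.

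Of 8 glutathione supply genes, 2 fell and none rose (median log2 fold change -0.14). They were the genes of both chains of the cystine importer. SLC3A2 encodes the heavy chain, which also serves other amino acid transporters. It had 324, 286 and 303 CPM with inhibitor and 761, 520 and 533 CPM with DMSO (log2 fold change -0.99, SE 0.146, edgeR adjusted p = 0.00183). SLC7A11, the transport chain and itself a known NRF2 target, had 58.1, 57.5 and 54.2 CPM with inhibitor and 112, 80.1 and 84.9 CPM with DMSO. Its log2 fold change was -0.71 (SE 0.142, adjusted p = 0.0130), and the call was lost without inhibitor 1, 2 or 3 (adjusted p = 0.0842, 0.101 and 0.0933), over a range of 1.26e-05 to 0.101 and at values between -0.80 and -0.55 under all alternatives. GCLM, the modifier subunit of the enzyme that starts glutathione synthesis and a known NRF2 target, did not pass, at 31.6 ± 3.20 CPM with inhibitor and 24.7 ± 4.22 CPM with DMSO (SD, n = 3 each; log2 fold change 0.35, SE 0.152, adjusted p = 0.225).

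Of 14 tested genes of other NADPH supply, 1 fell and none rose (median log2 fold change -0.17). MTHFD2, a mitochondrial folate enzyme gene, had 379, 365 and 432 CPM with inhibitor and 796, 690.0 and 609 CPM with DMSO. The groups were far apart, with -0.83 as the log2 fold change (SE 0.127, edgeR adjusted p = 0.00227). Without DMSO 3, where 21.9% of all genes were called, 1 gene of this list was higher and 6 were lower.

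**Figure D5:**
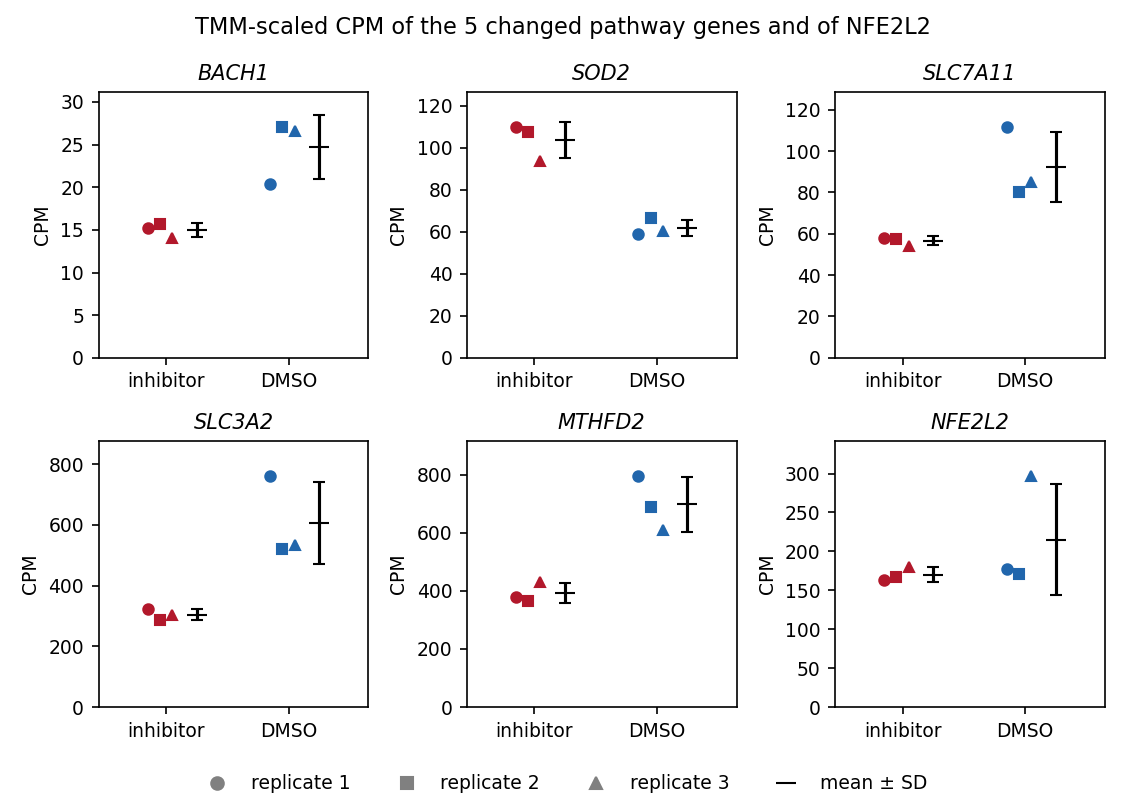
CPM (vertical axes starting at 0, each gene on its own scale) of the 5 changed pathway genes and of NFE2L2 in each inhibitor library (red) and DMSO library (blue), with group means and SD. The groups do not overlap for the 5 changed genes, and NFE2L2 stands out in DMSO 3 at 297 CPM.

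Among 8 tested genes of superoxide and peroxide removal, 1 rose and none fell (median log2 fold change -0.12). SOD2, the mitochondrial superoxide dismutase gene, which NF-kB and interferon signals are also known to induce, had 110, 107 and 93.8 CPM with inhibitor and 59.1, 66.4 and 60.2 CPM with DMSO. The groups were well separated (log2 fold change 0.75, SE 0.124, edgeR adjusted p = 0.00426), though without inhibitor 2 the adjusted p was 0.0511 at a log2 fold change of 0.72. Over all alternatives the fold change lay between 0.69 and 0.81 and the adjusted p between 8.3e-06 and 0.0511.

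No gene passed by edgeR in the remaining 3 lists. Of 11 tested thioredoxin and peroxiredoxin genes, 1 had an unadjusted p under 0.05. This was TXNIP, the thioredoxin inhibitor gene, at 38, 38 and 22 counts with inhibitor and 15, 23 and 14 counts with DMSO (log2 fold change 0.97, SE 0.284, edgeR adjusted p = 0.0736). It passed without DMSO 3 (adjusted p = 0.0262), with no filter (0.0412) and with library quality weights (0.0176), over a range of 0.0176 to 0.301. Of 9 tested NRF2-linked detoxification genes, 2 had an unadjusted p under 0.05. CBR1, a carbonyl reductase gene, had 65.2, 68.9 and 54.9 CPM with inhibitor and 46.7, 46.7 and 47.6 CPM with DMSO. By edgeR it was at 0.42 on the log2 scale (SE 0.128, adjusted p = 0.0826), and it passed without DMSO 3 (adjusted p = 0.00836), with the GC trend removed (0.0489), with library totals only (0.0492) and with library quality weights (0.00366), over a range of 0.00366 to 0.351. Of 15 tested genes of heme breakdown and iron handling, none had an unadjusted edgeR p under 0.05. HMOX2, the constitutive heme oxygenase gene, had the smallest p, at 68.8 ± 4.56 CPM with inhibitor and 55.2 ± 10.8 CPM with DMSO (SD, n = 3 each; log2 fold change 0.31, SE 0.150, adjusted p = 0.270). DESeq2 and unweighted limma-voom called none in these 3 lists either. Without DMSO 3 the thioredoxin, detoxification and heme lists had 3, 3 and 2 calls, and with library quality weights they had 2, 3 and 2, in fits that called 21.9% and 23.2% of all genes. In the heme list 1 gene was higher and 1 lower under either setting.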

How the data were processed

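Libraries came from an amplicon panel, the Ion AmpliSeq Transcriptome panel, read on an Ion Torrent instrument, per the labels' protocols. The deposited values are raw counts of each gene symbol in each library, without scaling. HTSeq, DESeq2 1.20.0 and hg19 are named, with no role, in the submitters' processing notes; the aligner was not given in the sources used here. Groups and replicate numbers come from the sample titles. All genes were fitted with edgeR 4.0.16 (R 4.3.3) after filterByExpr (minimum count 10, minimum total 15), with TMM scaling, the quasi-likelihood test and Benjamini-Hochberg adjustment over all 11216 tested genes. CPM are TMM-scaled, with a prior count of 2 on the log2 scale. The SE was taken from the fold change and its F statistic, and the 95% interval uses the test's degrees of freedom. Count ratios with exact intervals were used for genes with 25 counts or fewer in a group. The fits were also run on simulated data, but the outcome is not given here and no result rests on it. Alternatives used DESeq2 1.42.0 and limma 3.58.1; GC content came from GENCODE transcripts matched for 98.9% of tested genes.

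The members, lists and tests were chosen with earlier results of these data known. All members were named. Of each list the text names up to 3 changed genes of largest fold change or, where none changed, the gene with the smallest p, and always NFE2L2, KEAP1, BACH1, GCLM and SLC7A11; a few items that this rule or the marker lists select are not reported here. MAFF and ABCC3 were named outside this rule. The closest genes were sought among those with a mean count of at least 50.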

Additional observations from a re-analysis of the deposited data

How the results depend on the processing

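Of 119 values of the 8 tested members under the alternatives, 113 kept the direction and the side of the threshold, 4 (ME1 and FTL, without DMSO 3 and with library quality weights) passed, and 2 (FTH1) changed sign. Library quality weights gave 2 changed members, 20 changed pathway genes and 2606 changed genes in all, in place of 0, 5 and 434. With no filter 831 genes changed, and 686 with the GC trend removed. Leaving out 1 library gave 99 (without inhibitor 2) to 2496 (without DMSO 3) changed genes, 0 to 2 members and 2 to 25 pathway genes. It gave log2 fold changes of -0.028 to 0.084 for FTH1. The cause of these differences was not tested. Same-numbered libraries did not deviate together (correlations of -0.079, -0.045 and -0.12 over 9246 genes). The replicate block gave 327 changed genes, 0 members and 5 pathway genes. Low counts, 3 to 15 per library for TXNRD1 and 8 to 25 for OSGIN1, limit these members.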
